A study of Homo sapiens with 6 samples.

Results

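The first THUMPD2 knockout line of HEK293T cells (KO1, 2 libraries) was compared with its wild type (WT, 2 libraries), which makes 4 of the 6 RNA-seq libraries of the study. The other 2 libraries come from a second knockout line (KO2). They served here to show whether a row that moved in KO1 stayed at the WT level in KO2. HEK293T is a transformed human embryonic kidney line that carries the SV40 large T antigen, and no treatment or time course is given. The genotype labels say only WT, THUMPD2 KO#1 and THUMPD2 KO#2, so KO1 stands for 1 knockout line, and whether its 2 libraries came from separate cultures is not stated. Every difference below is therefore a difference between 1 line and 1 WT line, and the p-values measure only the spread between libraries, which may be technical.

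THUMPD2 is an RNA methyltransferase that works with the small activating protein TRMT112 and modifies the U6 small nuclear RNA. U6 RNA forms part of the catalytic centre of the spliceosome, the particle that removes introns from pre-mRNA. The study asked which genes and splicing events change without THUMPD2 and used 2 lines to assess whether changes recur. Rows that moved in KO1 while KO2 stayed near WT are described here.

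Row counts summed to between 7414339 and 8085598 reads in the 4 KO1 and WT libraries. Both pairs spread beyond counting noise, the KO1 pair more so: chi-square divided by its degrees of freedom was 3.625 for KO1 and 2.317 for WT. The THUMPD2 row had 1 and 2 reads in the WT libraries, 3 and 0 in those of KO1, and 0 and 1 in those of KO2, and had no opposite-strand row, so the target gene gave no check of the genotypes. Among marker rows of other cell types in KO1, PTPRC (leukocytes) held 15 and 9 reads, CLDN5 (endothelium) 43 and 54, COL1A1 (fibroblasts) 5 and 8, VIL1 (gut epithelium) 1690 and 1444, and ALB (hepatocytes) none.

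Reads appear under the strand opposite to many genes. The TUBA1B row held 191 reads per library on average, while AC011603.2, annotated as antisense to this tubulin gene, held 181080. A row is therefore named together with the gene on the other strand wherever at least 100 of its exonic bases lie over that gene and these are at least 80% of its opposite-strand overlap. Here "over" always means this strand relation. A row that rose or fell is described as a row and not as a change of the gene it is named for. Which of the 2 strands its reads came from was not settled row by row.

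The promoters of 4 genes are shown because the rows that were silent in one line and read in another, described below, lie at these genes. Each run holds the 250 bases before the RefSeq start on GRCh38.p14, 5′ to 3′ on the gene's strand, with every CG dinucleotide in capitals. CG reads the same on both strands and was the only motif searched.
NHLH2: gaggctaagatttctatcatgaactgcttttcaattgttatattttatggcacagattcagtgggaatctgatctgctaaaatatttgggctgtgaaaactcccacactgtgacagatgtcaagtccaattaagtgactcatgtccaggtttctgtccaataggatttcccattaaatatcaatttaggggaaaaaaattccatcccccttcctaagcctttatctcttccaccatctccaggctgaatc
PAPLN: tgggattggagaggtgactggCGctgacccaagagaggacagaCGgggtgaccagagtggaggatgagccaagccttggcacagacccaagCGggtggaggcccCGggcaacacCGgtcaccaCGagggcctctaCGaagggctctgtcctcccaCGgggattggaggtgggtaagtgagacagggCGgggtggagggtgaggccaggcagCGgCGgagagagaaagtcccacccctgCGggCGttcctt
STS: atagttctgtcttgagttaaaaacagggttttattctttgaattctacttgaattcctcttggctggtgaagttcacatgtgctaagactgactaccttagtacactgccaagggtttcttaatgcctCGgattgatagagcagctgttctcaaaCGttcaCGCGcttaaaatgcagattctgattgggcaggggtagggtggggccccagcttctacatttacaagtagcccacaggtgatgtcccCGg
PUDP: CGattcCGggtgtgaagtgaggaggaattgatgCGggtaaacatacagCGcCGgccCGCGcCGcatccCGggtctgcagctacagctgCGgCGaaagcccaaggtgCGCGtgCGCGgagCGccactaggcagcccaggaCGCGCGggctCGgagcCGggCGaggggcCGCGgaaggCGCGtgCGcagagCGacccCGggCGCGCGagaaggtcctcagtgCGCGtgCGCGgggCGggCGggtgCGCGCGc
NHLH2 (chr1:115841127-115841376, minus strand) has 0 CG in this window, while PUDP (chrX:7148154-7148403, minus strand) has 41, a number that 2.18% of 14892 protein-coding promoters of the same length reach. The NHLH2 window lies inside the GENCODE gene (115836377 to 115843917), so the bases before the start of that model were not counted. PAPLN (chr14:73237256-73237505, plus strand) has 13, which 63.1% reach, and STS (chrX:7147040-7147289, plus strand) has 5, which 80.2% reach. The 2 promoters whose rows were read in WT and silent in KO1 thus lie at different CG densities. RefSeq sequences were found for 121 of 151 protein-coding genes under rows higher in KO1 alone and for 127 of 158 under rows lower in KO1 alone. At least 15 CG were present in 86.8% and 79.5% of them, beside 58.4% of all protein-coding promoters, and the first 2 sets hold abundant rows by construction (see the counts below).

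KO1 differed from WT in 3350 of 14184 tested rows (23.6%, Benjamini-Hochberg adjusted p under 0.05 by the edgeR quasi-likelihood test). Of these, 1469 were higher (10.4% of tested rows), 1881 were lower (13.3%), and 1182 changed at least 2-fold. With upper-quartile scaling, which moved the median of all rows by 0.076 on the log2 scale, the split was 1941 higher and 1549 lower. The prevailing direction thus changed with the scaling.

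A row was counted as changed in KO1 alone when it met 3 conditions. It was called in KO1 against WT, it was called in KO1 against KO2 in the same direction, and the 95% interval of KO2 against WT lay within 1.5-fold. These conditions held for 554 rows (3.91% of tested rows, 16.5% of those called in KO1), of which 265 were higher (1.87%) and 289 lower (2.04%). Upper-quartile scaling gave 378 higher and 231 lower. KO2 was itself called within the 1.5-fold bound in 159 of the 554, in the same direction as KO1 in 82 and the opposite direction in 77. The stricter set with KO2 not called holds 395 rows, 178 higher and 217 lower.

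Most of these changes were small. The median size was 0.49 on the log2 scale, and 29 rows changed at least 2-fold, 5 of them higher and 24 lower. The bound on KO2 is 0.585 on the same scale, wider than this median, so KO2 could move as far as KO1 in a counted row. AC015674.1, over KPNB1, was at 0.18 in KO1 and −0.41 in KO2. The interval condition favours abundant rows: the median count was 799 reads per library in the 554 rows, beside 186 in all rows called in KO1 and 40 in all tested rows. At the edge of the bound, AL356804.1 was just inside (KO2 interval reaching 0.5843) and AC098595.1 just outside (0.5855).

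**Figure D1:**
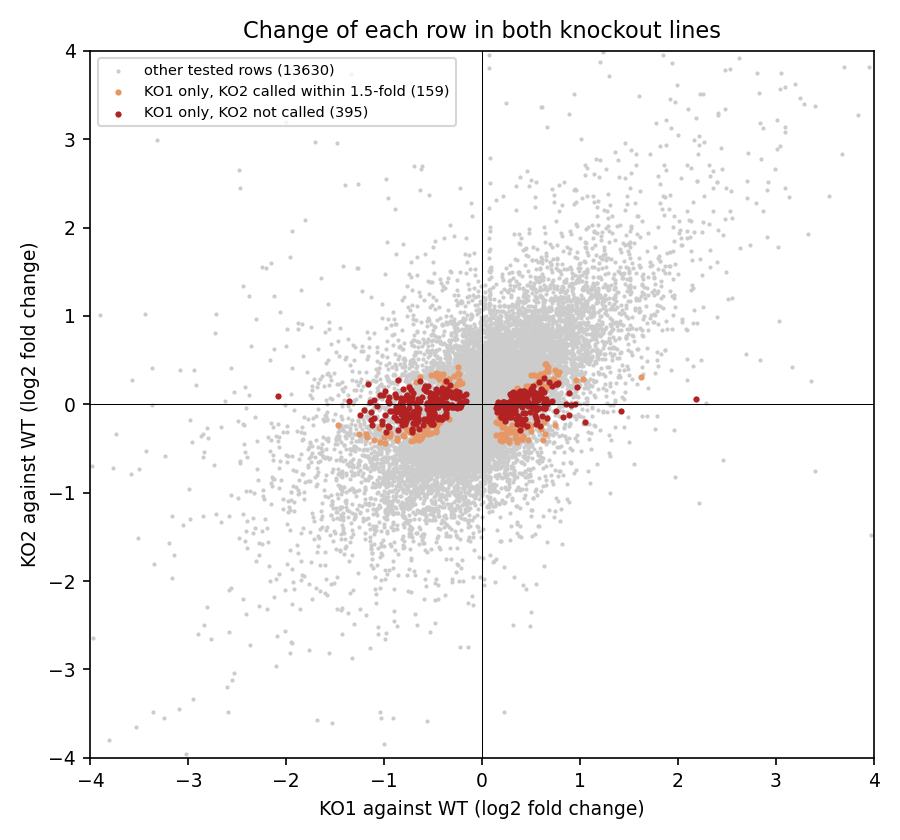
Each point is 1 of 14184 tested rows, with its log2 fold change in KO1 against WT on the x axis and in KO2 against WT on the y axis, both against the same 2 WT libraries. The 395 red and 159 orange rows changed in KO1 alone lie in a band around 0 on the y axis, as the rule sets, and 177 points fall outside the axes at 4.

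A further 475 rows differed from WT and from KO2 in the same direction but did not meet the bound. KO2 had moved the same way as KO1 in 145 of them and the opposite way in 84, and for 246 it was not called and its interval was too wide. Some of the largest KO1 changes are among these 246, chosen here after their values were seen. UNCX, a homeobox gene of the developing axial skeleton and nervous system, had 36 and 36 reads in the WT libraries, 208 and 169 in those of KO1, and 24 and 27 in those of KO2. SMUG1, a uracil-DNA glycosylase of base excision repair, over FLJ12825, had 72 and 82 reads in the WT libraries, 12 and 5 in those of KO1, and 84 and 138 in those of KO2. RINT1, a vesicle tethering protein, over EFCAB10, had 94 and 93 reads in the WT libraries, 12 and 12 in those of KO1, and 72 and 88 in those of KO2. In all 3 rows the KO1 libraries stood clear of the other 4, and the KO1 changes were 2.46, −3.08 and −2.87 on the log2 scale.

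The rows AC100782.1, VCAN-AS1, SMAD1, NSMAF and AC005005.3 rose at least 2-fold in KO1 alone. AC100782.1 (ENSG00000254238.1, chromosome 8, 75026428 to 75029460, minus strand) had 173 and 153 reads in the WT libraries, 712 and 693 in those of KO1, and 181 and 193 in those of KO2. It has 74 exonic bases over CRISPLD1, a secreted cysteine-rich protein, too few for assignment, and is named here after its values were seen. Both KO1 libraries lay above the other 4, at 4.55-fold the WT level, and the change was 2.19 ± 0.12 (log2 fold change ± SE, n = 2 against 2, adjusted p = 1.69e-17 by edgeR). VCAN-AS1 (chromosome 5, 83531352 to 83581320, minus strand) lies over 453 exonic bases of VCAN, the large matrix proteoglycan versican. It had 417 and 392 reads in the WT libraries, 1209 and 1148 in those of KO1, and 540 and 565 in those of KO2. The KO1 level was 3.07-fold that of WT (adjusted p = 2.1e-17), and KO2 was also called, at 0.31.

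SMAD1 encodes a transcription factor that carries signals from BMP receptors. Its row (chromosome 4, 145481194 to 145558079, plus strand), over SMAD1-AS1, had 105 and 119 reads in the WT libraries, 269 and 297 in those of KO1, and 106 and 128 in those of KO2. KO1 rose 2.67-fold (adjusted p = 4.86e-09), while KO2 was at −0.07 with an interval from −0.421 to 0.278. The SMAD1-AS1 row itself held more reads, 622 per library on average, and was at −0.13 in KO1, not called. NSMAF, a protein that links the TNF receptor to neutral sphingomyelinase, had 187 and 202 reads in the WT libraries, 388 and 373 in those of KO1, and 178 and 194 in those of KO2. Its KO1 libraries again lay apart, at 2.07-fold the WT level.

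AC005005.3, over SMTN (smoothelin, an actin-binding protein of smooth muscle), rose from 530 and 548 reads to 1148 and 933, with 730 and 713 in KO2. RFFL, a ubiquitin ligase, over LIG3 (a DNA ligase of single-strand break repair), rose from 722 and 878 to 1557 and 1377, with 971 and 1149 in KO2. KO2 was called above WT in these 2 rows, at 0.29 and 0.27. RFFL also lies in a 10 Mb region of chromosome 17 whose median was 0.527 in KO1 and 0.431 in KO2. With an offset per region the RFFL row was at 0.41 and still called.

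Other named rows rose by less than 2-fold. CHEK1, a checkpoint kinase, had 37 and 54 reads in the WT libraries, 87 and 74 in those of KO1, and 55 and 44 in those of KO2, a rise of 0.90 ± 0.25. This call was lost with DESeq2 (0.91) and without WT replicate 1 (0.70). SLC12A4, a potassium-chloride cotransporter, rose by 0.88 and TYMP, thymidine phosphorylase, by 0.83. NUP50, a nuclear pore protein, rose by 0.86 from 38 and 38 reads to 71 and 60. The NUP50 call was lost with DESeq2 (0.87), without WT replicate 2 (0.81), without KO1 replicate 1 (0.78), and with an offset for its 10 Mb region (0.47), whose median was 0.387 in KO1 and 0.017 in KO2. PIH1D1, a cofactor of a chaperone complex, over ALDH16A1, rose by 0.78, and WEE2-AS1 and ZSCAN12P1 by 0.95 and 0.89.

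APOBEC3B-AS1 and NKX2-2-AS1 were the 2 named rows that fell furthest in KO1 alone. APOBEC3B-AS1 (chromosome 22, 38991559 to 38998209, minus strand) had 179 and 153 reads in the WT libraries, 34 and 40 in those of KO1, and 188 and 202 in those of KO2. KO1 was 4.24-fold lower than WT (−2.08 ± 0.22, adjusted p = 6.85e-10) and KO2 was at 0.09. The row shares 244 exonic bases with APOBEC3B, a DNA cytidine deaminase, without meeting the rule for assignment. NKX2-2-AS1 (chromosome 20, 21511447 to 21512309, plus strand) lies over NKX2-2, a homeobox factor of ventral neural tube and pancreatic islet cells. It had 284 and 275 reads in the WT libraries, 103 and 103 in those of KO1, and 306 and 326 in those of KO2. KO1 was 2.57-fold lower (adjusted p = 1.75e-09), and neither the WT nor the KO2 libraries overlapped with it.

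**Figure D2:**
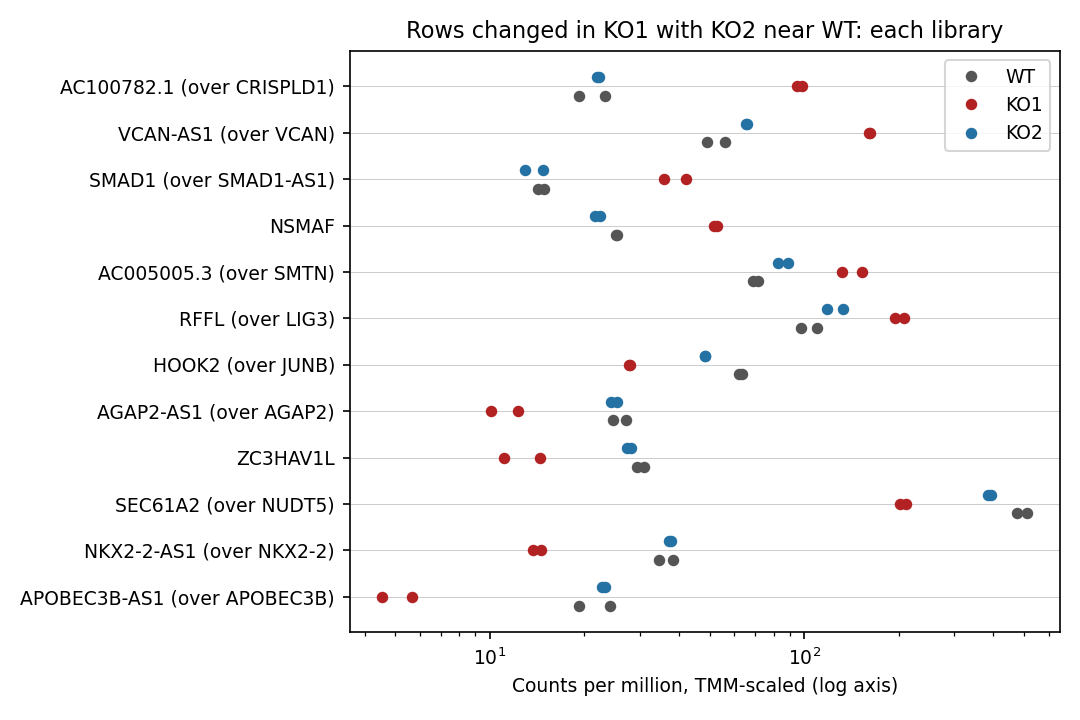
CPM, TMM-scaled (log axis), of 12 rows changed in KO1 alone, with 2 points per group for the 2 libraries of WT (grey), KO1 (red) and KO2 (blue). The KO1 points stand to the right of the others in the upper 6 rows and to the left in the lower 6, and KO2 lies between WT and KO1 in VCAN-AS1, AC005005.3, RFFL, HOOK2, ZC3HAV1L and SEC61A2.

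Further rows fell by between 2.18-fold and 2.37-fold. AGAP2-AS1, over AGAP2 (an activator of small GTPase hydrolysis), had 183 and 217 reads in the WT libraries, 76 and 87 in those of KO1, and 200 and 220 in those of KO2. AGAP2 is one of the pairs in which both strands fell: its own row was at −0.55 in KO1, but also at −0.76 in KO2. HOOK2, over JUNB (a subunit of the AP-1 transcription factor), had 460 and 504 reads in the WT libraries, 209 and 196 in those of KO1, and 399 and 420 in those of KO2, where it was called at −0.37. IGSF10, over MED12L (a Mediator kinase module protein), fell 2.28-fold, with KO2 called at −0.34. ZC3HAV1L, an RNA-binding zinc finger protein, fell 2.37-fold from 229 and 235 reads to 83 and 102, with 232 and 237 in KO2. CBR3-AS1 fell 2.21-fold and AC010536.3, over JPH3 (a junctional membrane protein of excitable cells), 2.18-fold, both with KO2 not called.

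The most abundant rows changed in KO1 alone moved little. AC006064.4, over the glycolytic enzyme gene GAPDH, had 125569 and 133484 reads in the WT libraries, 136359 and 142186 in those of KO1, and 122213 and 126941 in those of KO2. It rose by 0.19 in KO1 and was called lower in KO2, at −0.19. AC011603.2, over TUBA1B, rose by 0.17, with KO2 at −0.21. MIF-AS1, which shares 687 exonic bases with the cytokine gene MIF, rose by 0.34, and AL138963.3, over TPT1 (a translationally controlled protein), by 0.20, with KO2 at −0.09 in the TPT1 case. None of these 4 passed a test against a 1.2-fold threshold, and the call of AC011603.2 was also lost with DESeq2 (0.17) and without WT replicate 2 (0.10). AC010761.2, over NEK8 (a ciliary kinase), made a larger step, from 53178 and 53641 reads to 85177 and 86619, with 70415 and 78062 in KO2. It rose 1.70-fold, KO2 was called at 0.34, and its 10 Mb region had a median of 0.481 in KO1 and 0.206 in KO2.

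The abundant lower rows fell by 0.17 to 0.63. CDKN2B-AS1, over CDKN2A (which encodes the cell cycle inhibitors p16 and p14ARF), had 14198 and 14533 reads in the WT libraries, 9490 and 9456 in those of KO1, and 13124 and 13760 in those of KO2. It fell by 0.52, and KO2 was called at −0.23. AC092069.1, over CALR (calreticulin, a calcium-binding chaperone of the endoplasmic reticulum), fell by 0.63, with KO2 called at −0.38. AC023593.1, over MCM2 (a subunit of the replicative helicase), fell by 0.39 in KO1 from 15841 and 16306 reads to 11501 and 11663, and was called higher in KO2 at 0.23. The AC023593.1 row lies in a region of chromosome 3 with a median of −0.376 in KO1, and with an offset for that region it was at −0.04 and not called. METTL5, a TRMT112 partner that methylates 18S ribosomal RNA, has a row over SSB, the La protein that binds the ends of new U6 and other RNA polymerase III transcripts. It had 11700 and 11686 reads in the WT libraries, 10528 and 8864 in those of KO1, and 12983 and 14432 in those of KO2, a fall by 0.19 that was lost with upper-quartile scaling (−0.12), against a 1.2-fold threshold and without WT replicate 1 (−0.14).

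A total of 11 rows were switched in KO1 alone. Of these, 3 had at least 20 reads in both KO1 libraries and at most 3 in each WT and KO2 library, and 8 showed the reverse. They are described by their counts, without a test of the choice. The row NHLH2 (chromosome 1, 115836377 to 115843917, minus strand), a basic helix-loop-helix factor of developing neurons, had 0 and 0 reads in the WT libraries, 172 and 154 in those of KO1, and 1 and 0 in those of KO2. It was at least 115-fold higher than WT, taking 3 reads over both WT libraries as the floor, and 378-fold above KO2 (67.4 to 15000 from counting error). NHLH2 has no gene assigned on its other strand. Of 14 tested rows named for neurogenic helix-loop-helix and other neuronal transcription factors, 4 were called higher (28.6%, beside 10.4% of all tested rows) and none lower. NHLH2 is itself 1 of these 4, so the share is not independent of its choice. INSM1, another, had 7 and 0 reads in the WT libraries, 24 and 14 in those of KO1, and 11 and 19 in those of KO2. It was also called higher in KO2, at 1.91. The 1 member measured through the opposite strand, OLIG1 through AP000282.1, was lower at −1.36. The INSM1 call was lost with DESeq2 (2.48), without WT replicate 2 (1.44) and without KO1 replicate 1 (2.07).

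Both other rows switched on lie over PAPLN, a matrix proteoglycan-like protein on chromosome 14. AC004846.2 had 1 and 0 reads in the WT libraries, 65 and 76 in those of KO1, and 0 and 2 in those of KO2. AC004846.1 had 0 and 3, 28 and 20, and 1 and 0. Their KO1 to WT ratios were 149 (26.3 to 5930) and 16.9 (5.45 to 84.9), with counting intervals. The PAPLN row itself held 123 and 102 reads in the WT libraries, 81 and 71 in those of KO1, and 58 and 51 in those of KO2, and was not called in KO1 (−0.49, adjusted p = 0.0949). The NUMB row, whose gene ends next to PAPLN on the other strand and is named for an inhibitor of NOTCH signalling, had 6 and 1 reads in the WT libraries, 21 and 28 in those of KO1, and 6 and 5 in those of KO2. It rose by 2.84 ± 0.74 in KO1 (adjusted p = 0.00116), so 3 rows on the minus strand of this stretch were higher in KO1 while PAPLN on the plus strand was not.

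Of the rows switched off, 2 are neighbours on the short arm of the X chromosome. STS (chromosome X, 7219456 to 7354810, plus strand), steroid sulfatase, had 195 and 190 reads in the WT libraries, 0 and 1 in those of KO1, and 142 and 147 in those of KO2. PUDP (chromosome X, 7048920 to 7148190, minus strand), a phosphatase of pseudouridine nucleotides, had 40 and 63 reads in the WT libraries, 0 and 0 in those of KO1, and 78 and 75 in those of KO2. STS was 364-fold lower in KO1 than in WT (65.0 to 14400) and PUDP at least 32.5-fold lower. STS was also called lower in KO2, at −0.55, and PUDP was not called there. The GENCODE models of both genes lie 71265 bases apart, and the RefSeq STS start of the promoter shown above lies inside the PUDP gene. Within 1.5 Mb of them, 1 other row reached 20 reads in any library: PNPLA4, a lipid hydrolase, with 0 and 1 reads in the WT libraries, 3 and 2 in those of KO1, and 17 and 20 in those of KO2.

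Of the 6 other rows switched off, 2 have an assigned opposite-strand gene. AC009163.1, over CHST6 (a sulfotransferase of corneal keratan sulfate), went from 87 and 104 reads in WT to 3 and 0 in KO1, with 46 and 58 in KO2. AC091152.2, over MEIOC (a meiosis factor), went from 63 and 47 to 0 and 0, with 23 and 29 in KO2. KO2 was called lower than WT in both rows, at −1.01 and −1.22. ZMYND15, a testis transcriptional repressor, had 48 and 38 reads in the WT libraries, 1 and 0 in those of KO1, and 21 and 31 in those of KO2, where it was not called. The pseudogene rows PPIAP90 and AC011477.1 went from 42 and 39 and from 35 and 35 reads to 0 and 0 and to 2 and 0, and they are named after their values were seen. AL139232.1, not placed on the genome, had 28 and 24 reads in the WT libraries, 0 and 0 in those of KO1, and 116 and 127 in those of KO2.

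**Figure D3:**
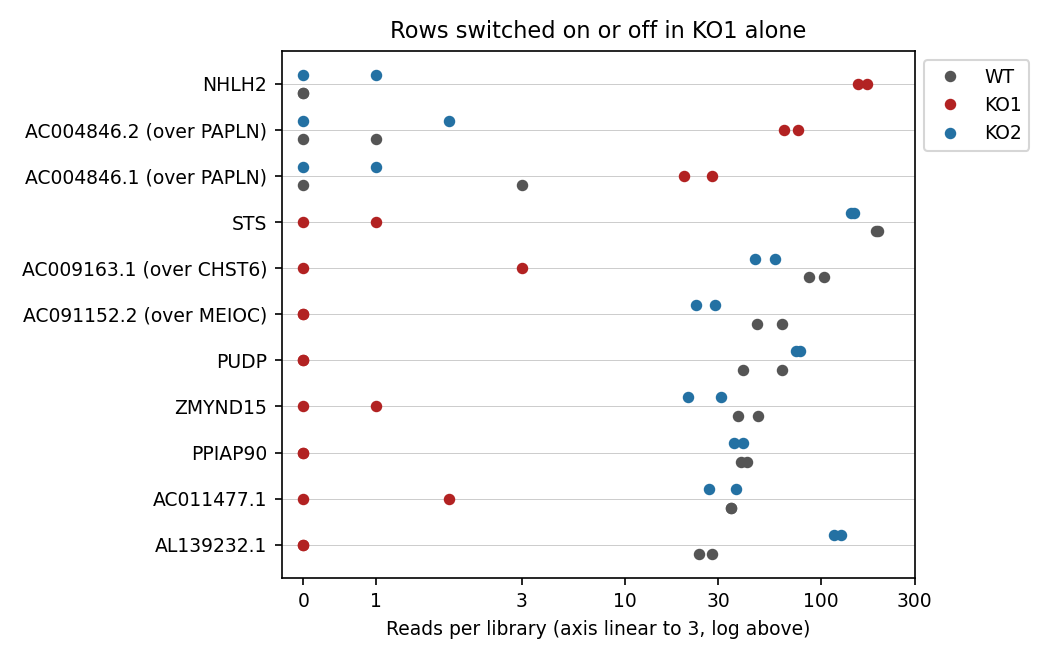
Reads per library (axis linear to 3, logarithmic above) for the 11 rows switched in KO1, with 2 points per group. KO1 stands alone on the right in the upper 3 rows and alone at 0 to 3 reads in the lower 8, while WT and KO2 lie between 21 and 195 reads there.

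KO1 also differed from WT over stretches of chromosomes. Of 148 regions of 10 Mb, each holding 15 or more rows with a mean count of 50 or above, 31 had a median log2 change of at least 0.3 in size in KO1, 16 higher and 15 lower. Of the 14184 tested rows, 10551 lie in these 148 regions, and 18.1% of those are in the 31 shifted regions. Among rows changed in KO1 alone, 444 lie in the 148 regions and 107 of them (24.1%) in shifted ones. A row change inside a shifted region and a change of the whole region cannot be told apart from counts.

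In 2 regions KO1 was shifted while KO2 stayed within 0.1. The region of chromosome 3 from 130000001 to 140000000 had a median of −0.514 in KO1 and 0.063 in KO2 over 22 rows. Of its 45 tested rows, 21 were called lower and 1 higher, and 9 were changed in KO1 alone, all lower. ASTE1 went from 344 and 342 reads to 166 and 130, with 296 and 373 in KO2. SRPRB, a subunit of the signal recognition particle receptor, went from 141 and 197 to 69 and 79, with 150 and 182 in KO2. AC107027.1, an antisense row with no assigned gene, fell by 0.38, a call lost against a 1.2-fold threshold. AC080128.2, over SRPRB, was at −0.17 and not called, and both of these turned positive with an offset per region. AC107027.1 was then at 0.16 and not called, and AC080128.2 at 0.37 and called higher.

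The region of chromosome 22 from 40000001 to 50000000 had a median of 0.387 in KO1 and 0.017 in KO2 over 34 rows. Of its 87 tested rows, 19 were called higher and 4 lower, and 10 were changed in KO1 alone, all higher. NUP50, given above, is 1 of the 10.

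Other regions moved in KO1 with a smaller or opposite step in KO2. The region of chromosome 10 from 10000001 to 20000000 had the lowest KO1 median, −0.969, with −0.363 in KO2, and 8 of its 38 tested rows (21.1%) were lower in KO1 alone. SEC61A2, a translocon subunit, over NUDT5 (a hydrolase of ADP-ribose), had 3800 and 3791 reads in the WT libraries, 1581 and 1427 in those of KO1, and 3171 and 3414 in those of KO2. It fell 2.39-fold (adjusted p = 1.69e-17), and KO2 was called at −0.34. SUV39H2, a histone H3 methyltransferase, over DCLRE1C (the end-joining nuclease Artemis), went from 142 and 151 reads to 57 and 69, with 138 and 164 in KO2. With an offset per region SUV39H2 was at −0.18 and not called. In the same region NMT2, over RPP38, fell by 1.10, and the RPP38 row on the other strand by 1.02, and AL512770.1, over CDC123, by 0.94, with the CDC123 row at −1.09. These 4 rows were named after their values were seen.

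The region of chromosome 17 from 20000001 to 30000000 held the most rows higher in KO1 alone, 15 of 71 (21.1%), with medians of 0.481 in KO1 and 0.206 in KO2. Regions of chromosome 3 from 120000001 to 130000000 and of chromosome 6 up to 10000000 moved in opposite directions, at −0.376 and 0.448 in KO1 and 0.184 and −0.180 in KO2. H1FX-AS1, in the first of these, fell by 0.17 in KO1 and was called higher, at 0.19, with an offset per region. The call was lost with upper-quartile scaling (−0.09), against a 1.2-fold threshold and without WT replicate 1 (−0.16). It shares 345 exonic bases with the linker histone gene H1FX.

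**Figure D4:**
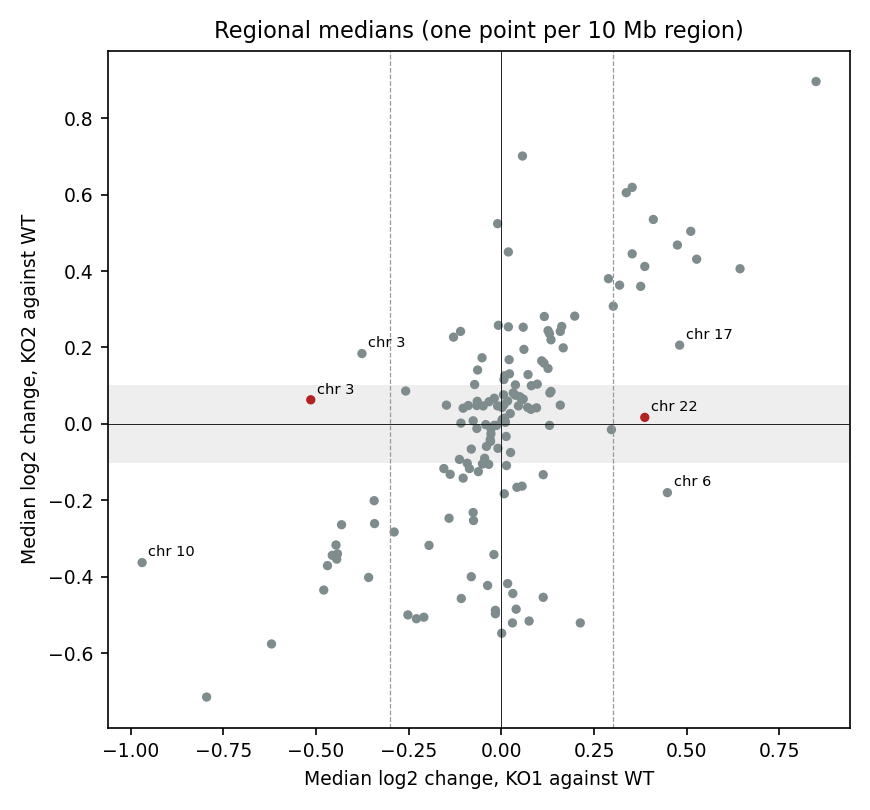
Each point is 1 of 148 regions of 10 Mb, with its median log2 change against WT in KO1 (x axis) and KO2 (y axis). The 2 red points, on chromosomes 3 and 22, lie beyond 0.3 (dashed lines) in KO1 and inside the grey band of 0.1 in KO2, and the lowest KO1 point is on chromosome 10.

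Opposite-strand genes were assigned to 355 of the 554 rows (64.1%), beside 53.1% of all rows called in KO1 and 38.2% of tested rows. Rows annotated as antisense made up 35.0% of the 554 and 18.2% of tested rows. For 311 of the 355 the opposite gene had a tested row of its own. The row changed in KO1 alone held more reads than that second row in 242 of the 311 pairs, and in 115 of the 125 where it was an antisense row. The second row was called in the same direction in 82 pairs, in the other direction in 26, and not called in 203. TYMS (thymidylate synthase), over ENOSF1, is one of the 26: it fell by 0.69 while the ENOSF1 row, with 10750 reads on average, rose by 0.26. CCNE2 (cyclin E2), over INTS8 (an Integrator subunit), fell by 0.54 while the INTS8 row rose by 0.36.

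Most rows over ATF4 target genes were higher in KO1, while most of the genes' own rows were not called. ATF4 is the transcription factor through which cells short of amino acids or with misfolded protein raise transporters and serine and folate metabolism. Read through the opposite strand, 8 of 10 measured genes of this list were called higher in KO1 and none lower, with a median of 0.42 beside 0.01 over all tested rows. For comparison, 13.1% of the 5423 tested rows with an assigned opposite gene were called higher and 19.8% lower. By row name, 7 of 23 (30.4%) were higher and none lower, beside 10.4% higher over all tested rows. The own rows of DDIT4, MTHFD2, CEBPB and ALDH1L2 were not called, the last at −0.76. Those of SHMT2 and SLC7A5 were called higher, at 1.13 and 0.66. The opposite-strand count ran from 5 to 8 over the other scalings and tests run for the list. Without KO1 replicate 2 the calls through the opposite strand were not all higher, and the median was 0.31. By name 1 row was called lower with an offset per region. The count by name fell to 1 with DESeq2, 2 against a 1.2-fold threshold, 3 without WT replicate 1 or without KO1 replicate 1, and 4 without WT replicate 2.

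DDIT4-AS1, over DDIT4 (an inhibitor of mTORC1), had 2193 and 2466 reads in the WT libraries, 3809 and 3709 in those of KO1, and 3176 and 3278 in those of KO2. It rose by 0.77 ± 0.062 although its region of chromosome 10 had a median of −0.446 in KO1. AC137834.2, over SHMT2 (mitochondrial serine hydroxymethyltransferase), rose by 0.64 from 2812 and 2753 reads to 3986 and 4221. AC006030.1, over MTHFD2 (a mitochondrial folate enzyme), rose by 0.38 from 9127 and 9379 reads to 11619 and 11204, and C12orf45, over the folate enzyme ALDH1L2, by 0.46. AC126696.2, over the amino acid transporter SLC7A5, rose by 0.36 and the SLC7A5 row by 0.66.

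Of the same 10 rows, KO2 was called higher than WT in 3, lower in 5 and neither in 2. MTHFD2 and SLC7A5 were called lower in KO2 through the same rows, at −0.24 and −0.43, and CEBPB, a stress-responsive transcription factor, was at 0.21 in KO1 and −0.42 in KO2 through CEBPB-AS1. SLC7A11-AS1, over the cystine transporter SLC7A11, had 502 and 504 reads in the WT libraries, 819 and 763 in those of KO1, and 210 and 246 in those of KO2. KO1 lay above and KO2 below WT without overlap, and the difference between the lines was 2.01 on the log2 scale (adjusted p = 6.56e-18). VLDLR-AS1, over the lipoprotein receptor gene VLDLR, was at 0.97 in KO1 and 0.98 in KO2. DDIT3, the stress transcription factor CHOP, over MARS, rose by 0.40 in KO1, with KO2 not called at −0.22. Of the 10 genes read through the opposite strand, 6 had rows changed in KO1 alone. Over all tested rows this share was 3.91%, and 355 of the 5423 rows with an assigned opposite-strand gene were in the set, which favours abundant rows. Among the 6, KO2 was also called higher, within the bound, in DDIT4-AS1 (0.34) and AC137834.2 (0.18). The rows over SLC7A5 and CEBPB fell further in KO2 than they rose in KO1. C12orf45, over ALDH1L2, was at −0.002 in KO2.

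**Figure D5:**
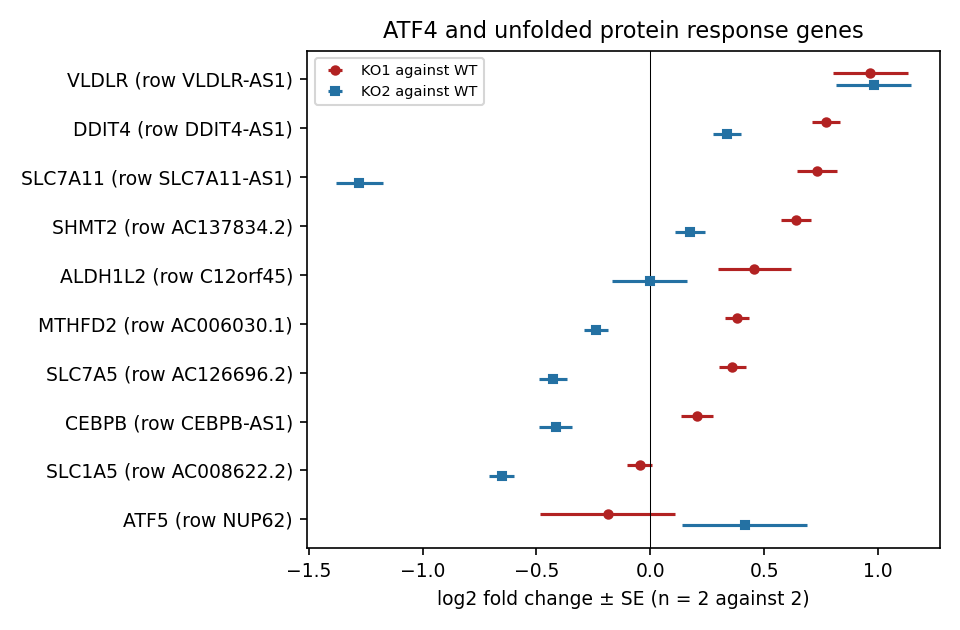
Log2 fold change ± SE against WT for the 10 genes of the ATF4 list measured through the row on their other strand, with KO1 as red circles and KO2 as blue squares (n = 2 against 2 each). KO1 was called higher in 8 genes, all but SLC1A5 and ATF5, and KO2 lies left of KO1 in 8 of the 10 rows and on the other side in VLDLR and ATF5.

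Factors that act on U6 RNA and the tri-snRNP, the particle that delivers U6 to the spliceosome, were called in 3 of 25 rows by name, beside 23.6% of all tested rows. PRPF8 and USP39 were higher and USB1, over ZNF319, lower. Through the opposite strand 2 of 7 were higher and 1 lower, together 42.9% beside 32.8% of rows with an opposite-strand gene, and all 3 were changed in KO1 alone. Of all 5423 tested rows with an opposite-strand gene, 355 were in that set, which favours abundant rows. The number called through the opposite strand fell to 1 of 7 with an offset per region and without WT replicate 1. MIR302CHG, over LARP7 (a protein that binds the 7SK RNA and guides modification of U6), had 2015 and 2005 reads in the WT libraries, 2959 and 2554 in those of KO1, and 2108 and 2343 in those of KO2. It rose 1.45-fold (0.53 ± 0.068, adjusted p = 8.99e-08), and KO2 was at 0.01. AC245052.4, over PRPF31 (a tri-snRNP assembly factor), rose by 0.14, with KO2 called at −0.20. HIGD1B, over EFTUD2 (a GTPase of the U5 particle), fell by 0.66 from 155 and 146 reads to 94 and 87, with 152 and 146 in KO2. PRPF8, whose own row rose by 1.01 on 34 to 92 reads, was at 0.07 and not called through AC130343.2, which held 2213 and 2458 reads in WT. The PRPF8 call was lost without WT replicate 1 (0.70), and that of HIGD1B with DESeq2, with an offset per region and without WT replicate 1.

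Of 8 tested rows of the TRMT112 and THUMP list, 1 rose and 1 fell, close to the 23.6% called among all tested rows. The TRMT112 row, over ESRRA, had 992 and 983 reads in the WT libraries, 799 and 868 in those of KO1, and 689 and 745 in those of KO2. It was at −0.16 ± 0.081 in KO1, not called (adjusted p = 0.148). It was called without KO1 replicate 2 (−0.27) and in KO2 (−0.60). Within the list, THUMPD3 (a THUMP-domain methyltransferase of tRNA) was higher at 0.92, with KO2 at 1.11, and METTL5 lower, as described above. Through the most abundant opposite-strand row of each gene 0 of 6 were called, beside 32.8% of rows with an opposite-strand gene. A further row over THUMPD3, AC026191.1, was changed in KO1 alone, at 0.23 with KO2 at 0.01. SR proteins and hnRNPs, which choose splice sites, had 7 of 43 rows higher by name (16.3%, beside 10.4% of all tested rows) and 6 of 16 through the opposite strand (37.5%, beside 13.1%), and none lower. With DESeq2 3 rows were higher by name, and against a 1.2-fold threshold 2 through the opposite strand. With limma-voom 8 were higher and 1 lower through the opposite strand. SON, a nuclear speckle protein, read through DONSON, rose by 0.43 from 8204 and 8639 reads to 11158 and 10382, with KO2 at 0.13 and not called. SRPK1, a kinase of SR proteins, read through LHFPL5, rose by 0.21.

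Markers of the HEK293 lineage differed between KO1 and WT. HEK293 cells express neurofilament and keratin genes, which were listed with kidney markers. Of 9 members measured by row name 3 were lower and none higher, beside 13.3% lower and 10.4% higher over all tested rows. Through the opposite strand 3 of 9 were lower and 1 higher, beside 19.8% and 13.1% of rows with an opposite-strand gene. AF106564.1, over NEFM (a neurofilament subunit), had 719 and 772 reads in the WT libraries, 74 and 67 in those of KO1, and 6469 and 6574 in those of KO2. KO1 was 9.99-fold below WT and KO2 far above it, so the 3 groups did not overlap. INA, another neurofilament gene, had 42 and 43, 9 and 3, and 80 and 83 reads in the same order. KRT8, over KRT18 (partner keratins of simple epithelia), fell by 0.34, and was called higher in KO2 at 0.29. AC015687.1, over EYA1 (a kidney and sensory organ developmental factor), went the other way, from 113 and 136 reads to 345 and 346, with 76 and 95 in KO2. VIM-AS1, over the intermediate filament gene VIM, was at −0.10 and not called.

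Marker rows of other cell types used here showed 0 of 5 blood rows called by edgeR, 1 of 2 endothelial rows lower (CLDN5, from 82 and 110 reads to 43 and 54), the 1 fibroblast row not called, and 1 of 4 liver and gut rows higher (CDX2, from 7 and 13 to 36 and 22). The calls of CLDN5 and CDX2 were lost with DESeq2 (−0.89 and 1.62). Through the opposite strand, 1 of 3 liver and gut genes was higher (LGR5, at 2.03 in KO1 and 2.56 in KO2), and no blood, endothelial or fibroblast gene was measured. Summed over the 7 blood marker rows used, reads ran from 66 to 68 in WT and from 52 to 59 in KO1, and over the 7 fibroblast rows from 29 to 33 and from 24 to 28. Over the 6 endothelial rows they ran from 93 to 134 in WT and from 54 to 74 in KO1. Over the 8 liver and gut rows they ran from 1569 to 1621 and from 1553 to 1796. The part of such levels in the changes above was not tested.

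Rows named for or lying over growth and proliferation genes changed in KO1 alone in both directions. LTO1, over CCND1 (cyclin D1), rose by 0.62 from 1031 and 1134 reads to 1637 and 1515, with KO2 called at 0.21. The MCM7 row, named for a replicative helicase subunit and over AP4M1, rose by 0.54, with KO2 at 0.01. The AP4M1 row on the other strand held more reads, 2823 per library on average, and was at −0.04 in KO1, not called. PLK1, a mitotic kinase, read through AC008870.3, rose by 0.22. The TYMS and CCNE2 rows and the row over MCM2 fell, while the ENOSF1 and INTS8 rows opposite TYMS and CCNE2 rose, as given above. By name 3 of 26 replication and mitosis rows were higher and 2 lower, beside 10.4% higher and 13.3% lower over all tested rows, and through the opposite strand 2 of 4 were higher and 1 lower, beside 13.1% and 19.8% over rows with an opposite-strand gene. Of the Hippo pathway genes, YAP1 read through AP000942.2 rose by 0.30 and its partner WWTR1, read through WWTR1-AS1, fell by 0.58 from 812 and 942 reads to 536 and 570, with 812 and 849 in KO2.

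Lipid genes were split in the same way. Of the sterol and fatty acid list 4 of 21 rows were higher and 4 lower by name, beside 10.4% higher and 13.3% lower over all tested rows, and 2 of 11 were higher and 5 lower through the opposite strand, beside 13.1% and 19.8% over rows with an opposite-strand gene. SREBF2-AS1, over SREBF2 (the transcription factor that raises cholesterol synthesis), rose by 0.46 with KO2 at 0.10, AC114947.2, over HMGCS1 (a cholesterol synthesis enzyme), by 0.32 with KO2 at 0.04, and FASN (fatty acid synthase) by 0.69. SREBF2-AS1 and the row over HMGCS1 thus rose. The rows FADS1, over FADS2, and IDI2-AS1, over IDI1, fell in both lines, by 2.56 and 0.90 in KO1. SREBF2-AS1 lies in the region of chromosome 22 given above, with medians of 0.387 in KO1 and 0.017 in KO2. Among rows of developmental factors, GATA2, a factor of blood and neural progenitors, fell by 0.76 with KO2 at 0.11, and PAX6, an eye and brain factor, over ELP4, fell by 0.67 with KO2 at −0.23. The GATA2 row lies in the region of chromosome 3 from 120000001 to 130000000, with medians of −0.376 in KO1 and 0.184 in KO2. FZD4, a WNT receptor, read through PRSS23, rose by 0.55 with KO2 at −0.16, while the FZD4 row rose by 2.20 in KO1 and 2.52 in KO2.

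The remaining lists were counted as higher and lower in KO1 among tested members, first by row name. The counts were 4 and 0 of 11 for the NOTCH pathway, 2 and 1 of 22 for the TGF-beta and BMP pathway, 1 and 1 of 20 for the WNT pathway, and 2 and 2 of 15 for MAPK feedback genes. They were 3 and 4 of 23 for homeobox and patterning genes, 3 and 2 of 21 for mesenchymal and matrix genes, 2 and 0 of 13 for cadherins and junctions, and 0 and 1 of 15 for neurotrophin and receptor kinase genes. They were 4 and 0 of 28 for mitochondrial genes, 2 and 1 of 21 for glycolysis and hypoxia, 2 and 0 of 16 for p53 targets, and 0 and 2 of 12 for interferon response genes. They were 0 and 0 of 13 for YAP and TEAD targets, 0 and 0 of 6 for retinoid genes, 1 and 1 of 5 for LY6 proteins, 0 and 2 of 4 for the D52 family, and 0 and 1 of 7 for synapse genes. Over all tested rows 10.4% were higher and 13.3% lower.

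Read through the opposite strand, fewer members were measured, and in most of these lists a larger share was called. The share was not larger for NOTCH (33.3%, beside 36.4% by name) or for mitochondrial genes (14.3% both ways). The counts were 2 and 4 of 7 for neurotrophin and receptor kinase genes, 3 and 1 of 5 for YAP and TEAD targets, 1 and 3 of 4 for interferon response genes, 3 and 3 of 8 for homeobox and patterning genes, and 2 and 3 of 9 for mesenchymal and matrix genes. They were 2 and 2 of 8 for glycolysis and hypoxia, 2 and 0 of 6 for TGF-beta and BMP, 2 and 0 of 5 for p53 targets, 1 and 1 of 5 for WNT, 1 and 1 of 5 for MAPK feedback, and 0 and 2 of 5 for retinoid genes. They were 1 and 0 of 7 for mitochondrial genes, 1 and 2 of 4 for cadherins and junctions, 0 and 1 of 3 for NOTCH, 1 and 0 of 2 for LY6 proteins, and 1 and 1 of 2 for the D52 family. Over all rows with an assigned opposite-strand gene 13.1% were higher and 19.8% lower.

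Within these lists SMAD1 was the 1 of 22 tested rows of its pathway that changed in KO1 alone by row name. PAX6 and GATA2 were the 2 of 23 among the patterning genes, beside 3.91% of all tested rows. The rows of the interferon response genes PARP9 and DTX3L, which lie over each other and encode partner proteins of ADP-ribosylation and ubiquitin ligation, fell in both lines. The PARP9 row held 48 and 82 reads in the WT libraries, 0 and 0 in those of KO1, and 2 and 0 in those of KO2. For DTX3L the reads were 31 and 30, 1 and 0, and 3 and 1 in the same order.

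The authors' deposited table compares all 4 knockout libraries together with WT and lists 553 of the 554 rows. Of these, 30 (5.42%) had a q-value under 0.05 in the authors' deposited table, beside 1164 of all 11785 rows (9.88%). The sign of the log2 fold change in the authors' deposited table matched that in KO1 for 526 of the 553, and it includes the same KO1 and WT libraries. For APOBEC3B-AS1 the authors' deposited table gives a log2 fold change of −0.897 with a q-value of 0.367, and for SMAD1 0.677 with 0.427.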

How the data were processed

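The deposited table holds whole-number read counts per gene symbol that the authors made from each library, with no normalization. Per the submitters' processing notes, the tools were STAR 2.7.1a, HTSeq 0.6.1p1, limma and Trim Galore, and GRCh38.p6 and hg38 are the builds listed. The strand setting of the counting is not given in the sources used here, while the labels' protocols name a directional kit read as first-strand. The log2 fold changes and q-values of the authors' deposited table compare both knockout lines with WT. Another 6 value columns of that table were not used.

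Counts were fitted with the edgeR 4.0.16 quasi-likelihood test (R 4.3.3), TMM scaling and filterByExpr, with 6 libraries in 1 fit of 3 groups, and p-values were adjusted over 14184 rows. SE values come from the coefficient covariance of that fit (31.9 prior degrees of freedom, 3 residual). The fit was tested on simulated data. Depth ran from 7414339 to 8391143 counts per library. A fold against a group without reads takes 3 counts over the group as its floor, and floors and intervals cover counting error only. Rows were placed with GENCODE release 29 on GRCh38, 56195 of 59087 by symbol and 324 by a current symbol, and promoters come from RefSeq (GRCh38.p14).

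Named rows were the 12 highest, 12 lowest and 5 most abundant in each direction among rows changed in KO1 alone, up to 5 switched rows each way, 2 per region shifted in KO1 alone, up to 3 called members per gene list (29 lists), THUMPD2 and TRMT112. Clone-based, LINC and LOC symbols entered only with an assigned opposite-strand gene, and 1 CPM was required. Rows named in other places are further list members, members of named loci and pairs, or rows chosen after their values were seen. The fits use every tested row, but 3 rows, 1 of them a list member, are not reported here and were left out of the named rows and list counts. The members, lists and rules were chosen with earlier results of these data known. Alternatives were other scaling factors, DESeq2 1.42.0, limma-voom (limma 3.58.1), other filters and thresholds, an offset per 10 Mb region, the replicate number as a block and leaving out each library.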

Additional observations from a re-analysis of the deposited data

Results flagged for a closer look

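The rows and regions given here changed differently in KO1 and KO2, by the edgeR test of the difference between the lines for rows (adjusted p under 0.05) and untested for regions. Values are KO1 minus KO2 on the log2 scale, and rows were drawn from named members of the gene lists that are not in the set changed in KO1 alone.

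Rows where KO1 lay above KO2 include NHLH2 (8.218), NUMB (2.345), AC015687.1 over EYA1 (2.229), SLC7A11-AS1 over SLC7A11 (2.009), AL136131.3 over the angiogenic factor gene VEGFA (1.268) and AP000282.1 over OLIG1 (1.00). For AL136131.3 the reads were 393 and 458 in the WT libraries, 696 and 690 in those of KO1, and 326 and 342 in those of KO2. Smaller differences of this sign were AC091588.3 over GATA6 (0.467), GPS1 over RFNG (0.356), GPR39 over LYPD1 (0.254) and SRSF9 over GATC (0.229).

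Rows where KO1 lay below KO2 include AF106564.1 over NEFM (−6.316), WNT11 (−4.231), INA (−3.526), LY6K over LNCOC1 (−3.362) and CLMAT3 over the matrix gene SPARC (−3.021). Others were AC091980.2 over TLX3 (−1.794), HDDC2 over TPD52L1 (−1.373), TPD52L1 over HDDC2 (−1.349), AC015712.2 over ALDH1A3 (−1.315), AP000785.1 over WNT11 (−1.186) and MAL2-AS1 over MAL2 (−1.101). WNT11 and AP000785.1 are the 2 strands of 1 locus: WNT11 had 92 and 57 reads in the WT libraries, 0 and 4 in those of KO1, and 48 and 44 in those of KO2. CLMAT3 had 150 and 122, 27 and 23, and 224 and 249 in the same order. Differences under 1 were GRIN1 (−0.854), PFKP (−0.827), AL671883.2 over HLA-B (−0.498), FADS1 over FADS2 (−0.484) and FZD4 over PRSS23 (−0.324). Smaller still were IDI2-AS1 over IDI1 (−0.256), AL390208.1 over SESN1 (−0.249), COX20 over HNRNPU (−0.248) and CFAP126 over SDHC (−0.209).

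Among the regions of 10 Mb whose KO1 median was at least 0.3 in size, 3 had medians on opposite sides of 0 in KO1 and KO2, in every library of each line. They start at 120 and 130 Mb on chromosome 3 (−0.56 and −0.577) and at the start of chromosome 6 (0.629), and these differences were not tested.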

How the results depend on the processing

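Against 3350 rows called in KO1, DESeq2 called 1897 and a 1.2-fold threshold left 1974, and leaving out 1 library at a time gave 2575 to 3411. Against 554 rows changed in KO1 alone, DESeq2 gave 332, a tighter bound on KO2 gave 238, and leave-one-out gave 373 to 623. The smaller counts followed without a WT replicate or a KO2 replicate (379 without WT replicate 2, 373 without KO2 replicate 2). The added requirement that KO2 is not called, chosen after seeing the data, left 395. With at least 20 reads and 0 in the other state, 4 rows were switched in place of 11. With rows of mean count 20 or more, 7 regions were shifted in KO1 alone in place of 2, and leave-one-out gave 1 to 4, with 4 without WT replicate 1 and 1 without WT replicate 2. The causes of these differences were not tested. With an offset per 10 Mb region, 483 rows were changed in KO1 alone, 332 of them shared with the 554, and 4 named rows turned sign: CFAP126 (−0.0889), H1FX-AS1 (0.19), AC107027.1 (0.16) and AC080128.2 (0.37). Over 118 named rows and 1865 values, 1807 kept direction and side of the threshold, 51 lost the call, 3 gained it and 4 reversed. Same-numbered libraries did not deviate together (correlations of −0.029, −0.021 and −0.021), so the numbers do not pair them. With the replicate block 3147 rows were called and 504 were changed in KO1 alone, and no named call changed. At this depth rows of few reads have wide KO2 intervals, which limits the set changed in KO1 alone mostly to abundant rows.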
